A study of Mus musculus with 12 samples.

Results

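The cytochrome P450 enzymes of families 1 to 3 were examined in offspring killed at 4 weeks of age, in liver and in quadriceps. Members were all genes whose symbol in the probe annotation names a P450 of family 1, 2 or 3 (Cyp1, Cyp2 or Cyp3, a subfamily letter and a number), taken from probe sets that name 1 gene, with the brightest probe set over the 6 samples of a tissue standing for each gene. This gave 43 genes of 18193 genes with such a probe set, measured by 52 probe sets and falling into 14 subfamilies. The mice were C57BL/6 without a transgene or deletion in the labels. All dams ate the normal protein diet with 20% casein. From day 1 of pregnancy until birth only, they drank plain water (NP) or water with 1% taurine (NP+tau), so the labels call the supplementation in utero. Each diet group had 3 livers and 3 muscles on Affymetrix mouse arrays. The methods give a different dam for each pup, and both tissues were taken from the same pups. Values are log2 expression values, and values of a gene are listed in the order of replicates 1, 2 and 3. A value belongs to its probe set, so results compare levels between samples and not between genes or tissues. The few arrays limit the precision of every difference.

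P450 enzymes of these families sit in the membrane of the endoplasmic reticulum, take electrons from P450 oxidoreductase and cytochrome b5, and insert oxygen into drugs, plant compounds, steroids and fatty acids. Most are made in hepatocytes, and many of them mainly in those around the central vein. Their transcription is known to respond to the aryl hydrocarbon receptor (Ahr) for family 1, to the receptors CAR (Nr1i3) and PXR (Nr1i2) for Cyp2b, Cyp2c and Cyp3a, and to growth hormone for members that differ between adult males and females. Inflammation is known to lower the mRNA of many of them.

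Some samples stood apart or went against what the methods say of the groups. Xist, which the inactive X chromosome transcribes, ranged from 11.63 to 11.78 over NP livers, while NP+tau livers had 11.08, 5.96 and 5.07. Eif2s3y of the Y chromosome ranged from 3.58 to 3.64 over NP livers, while NP+tau livers had 3.78, 8.55 and 8.57. The muscles of the same replicate numbers showed the same split, so the NP samples had Xist at a high level in each mouse whereas the methods describe groups of mixed sex. The array of NP+tau liver 1 deviated most from the median liver array (median absolute deviation 0.28, against 0.06 to 0.11 in the other 5). NP liver 1 had the highest values of acute phase genes and neutrophil markers. The tissues had the markers of their labels: 16 hepatocyte markers had a mean of 13.91 to 14.08 in the 6 livers, and 12 muscle fibre markers a mean of 13.93 to 14.20 in the 6 muscles. Of the muscle fibre markers, 9 were kept in liver, with a mean of 5.56 in NP+tau liver 1 and 4.71 to 4.78 in the other 5 livers. In bulk tissue, fewer cells of a type and less RNA per cell cannot be told apart.

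Many of these genes lie beside each other as gene clusters. By chromosome, 11 members were on chromosome 19 (all Cyp2c), 10 on chromosome 7 (Cyp2a, Cyp2b, Cyp2e, Cyp2f, Cyp2g, Cyp2r and Cyp2s), 8 on chromosome 15 (Cyp2d), 5 each on chromosomes 4 (Cyp2j) and 5 (Cyp3a), 2 on chromosome 9 and 1 each on chromosomes 3 and 17. Cyp2r1 and Cyp2e1 lie far from the other members on chromosome 7, and Cyp3a13 from the other Cyp3a members. Neighbours in a cluster have similar transcripts, so a probe set may also bind RNA of a near copy. RefSeq (GRCm38.p6) lists 59 symbols of the same form, of which 16 had no probe set to themselves. Sequences just before the transcription start are shown for 6 liver members described below: Cyp1a2, Cyp2f2, Cyp2c70 and Cyp2e1, which had positive differences between NP+tau and NP, Cyp2c50, which was low in NP liver 1, and Cyp3a11, which was nearly flat over the 6 livers. They are the 150 bases before the start in RefSeq's GRCm38.p6, on the strand of the gene. Capitals mark TATAA, the core of a TATA box, CAAAG and the longer CAAAGTCCA that contains it, letters found in binding elements of the hepatocyte factor HNF4A. The last pair was searched on both strands, so that CTTTG is the reverse of CAAAG.
Cyp1a2 (chr9:57683656-57683805, minus strand): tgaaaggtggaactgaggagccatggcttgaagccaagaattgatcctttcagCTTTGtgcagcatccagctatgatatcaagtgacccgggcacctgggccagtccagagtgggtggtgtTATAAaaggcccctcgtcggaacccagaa
Cyp2f2 (chr7:27119805-27119954, plus strand): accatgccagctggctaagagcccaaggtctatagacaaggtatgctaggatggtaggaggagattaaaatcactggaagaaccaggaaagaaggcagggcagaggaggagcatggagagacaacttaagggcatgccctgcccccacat
Cyp2c70 (chr19:40187287-40187436, minus strand): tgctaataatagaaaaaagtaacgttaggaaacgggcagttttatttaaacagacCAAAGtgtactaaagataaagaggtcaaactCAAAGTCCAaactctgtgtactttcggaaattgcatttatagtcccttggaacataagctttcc
Cyp2e1 (chr7:140763669-140763818, plus strand): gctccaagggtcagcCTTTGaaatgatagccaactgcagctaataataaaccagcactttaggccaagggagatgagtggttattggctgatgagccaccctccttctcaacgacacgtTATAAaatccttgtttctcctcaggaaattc
Cyp2c50 (chr19:40089529-40089678, plus strand): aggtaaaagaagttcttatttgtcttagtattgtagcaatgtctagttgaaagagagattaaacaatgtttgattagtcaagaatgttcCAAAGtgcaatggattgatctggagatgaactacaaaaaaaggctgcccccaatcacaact
Cyp3a11 (chr5:145879855-145880004, minus strand): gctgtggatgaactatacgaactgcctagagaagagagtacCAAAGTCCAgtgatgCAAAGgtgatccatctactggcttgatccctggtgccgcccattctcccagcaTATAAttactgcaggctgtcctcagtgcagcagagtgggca

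Of the 43 members, 35 had a sequence in this table. Within 250 bases before the start, TATAA on the gene's strand stood in 19 of the 35, against 16.0% of 32851 promoters in the table. CAAAG on either strand stood in 30 of 35, against 48.6%, and CAAAGTCCA in 5 of 35 (Cyp2c65, Cyp2c68, Cyp2c70, Cyp3a11 and Cyp3a16), against 0.384%. GCGTG, the core of the element that the aryl hydrocarbon receptor binds, stood in 6 of 35, against 28.2%. The letters were chosen after values were seen, members of a cluster share ancestry, and a match describes the sequence only. The Cyp3a11 and Cyp2c70 promoters both hold CAAAGTCCA, and their liver values behaved differently, as given below.

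In liver, the members had mostly higher values in NP+tau, with none past the test. A probe set was kept where the highest of the 6 values reached the 35th percentile of such values (4.60 in liver), which 37 of the 43 members did, 2 of them only through NP+tau samples. Of the 37, 26 had a difference (NP+tau minus NP) above 0 and 11 below 0, against 45.8% above 0 among all 29274 probe sets kept. Their median difference was 0.21, against -0.04 over all, and for the 35 members that both groups carried over the filter it was 0.20, with 24 above 0. Over all 43 members without the filter the median was 0.15, against 0.01 over all probe sets, with 12 below 0 (27.9%, against 47.7%). No member passed limma at an adjusted p under 0.05 (0 of 37, the lowest adjusted p being 0.718), and 0% of all probe sets did. At an unadjusted p under 0.05, 4 were higher (Cyp2c70, Cyp2f2, Cyp2j6 and Cyp2u1), against 0.7% of all probe sets, and 2 lower (Cyp2c38 and Cyp2c55), against 3.99%. The groups did not overlap for 4 with higher NP+tau values (Cyp2c70, Cyp2f2, Cyp2j5 and Cyp2j6), against 5.73%, and for Cyp2c38 and Cyp2c55 with lower ones, against 9.11%. Cyp2j13, whose NP+tau values also all exceeded its NP values, is not counted among the 4, since only NP+tau liver 1 carried it over the filter. With 3 samples in each group, an exact permutation test of a single gene cannot give a p below 0.1.

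These counts depended on single livers. Without NP liver 1 the median of the 37 was 0.00, with 19 above 0 and 18 below, against a median of -0.03 over all probe sets. The groups then did not overlap for 5 members with higher (Cyp2j13 included) and 2 with lower values, against 8.77% and 11.8% of all probe sets. At an unadjusted p under 0.05, only Cyp2f2 was then higher, against 0.307% of all probe sets. The count higher was 3 without NP liver 2 (0.393% of all), 9 without NP liver 3 (1.05%), 2 without NP+tau liver 1 (1.94%), 1 without NP+tau liver 2 (0.762%) and 2 without NP+tau liver 3 (1.08%). Cyp2c55 was lower at an unadjusted p under 0.05 whichever liver was left out. Of the 37 differences, 24 kept their sign whichever liver was left out and 13 did not, among them Cyp2c29, Cyp2c37, Cyp2c23, Cyp2c54, Cyp2d26, Cyp2d10, Cyp2d22, Cyp3a11 and Cyp3a25. With the Xist level as a covariate, 3 members passed at an adjusted p under 0.05 in limma (Cyp2c55, Cyp2j13 and Cyp2u1), against 32.3% of all probe sets. That fit compares in effect NP+tau liver 1, the array that deviated most, with the NP livers.

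**Figure D1:**
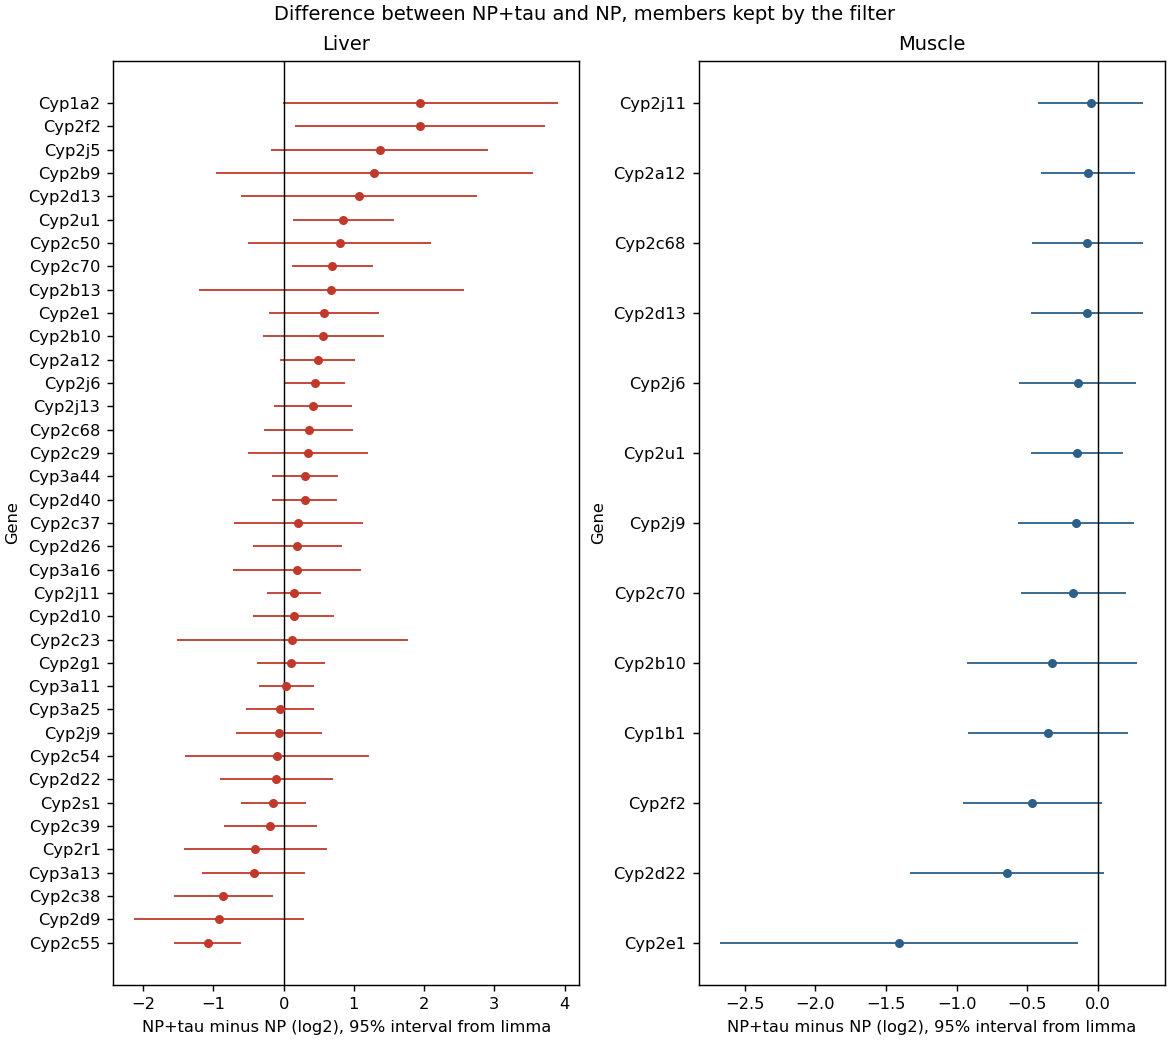
Difference between NP+tau and NP (horizontal axes, log2) for the members kept in liver (red, 37 genes) and muscle (blue, 13 genes), with bars for the 95% interval from limma. In liver 26 differences lie above 0, with Cyp1a2 and Cyp2f2 at 1.95 and 1.94 and Cyp2c55 at -1.08, and in muscle all 13 lie below 0, with Cyp2e1 at -1.41.

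In family 1, Cyp1a2, which oxidises caffeine and aromatic amines and is a target of the aryl hydrocarbon receptor, had the largest difference of the 37. It was at 7.17, 8.98 and 10.69 in NP and at 11.29, 10.20 and 11.19 in NP+tau livers. NP liver 1 was the lowest and NP liver 3 lay inside the range of the NP+tau livers, so the groups overlapped. The difference was 1.95 (standard error 0.83, 3.86-fold), and 1.06 (standard error 0.59) without NP liver 1. Cyp1a1 and Cyp1b1, both known mainly outside the uninduced liver, were not kept, at 4.10 to 4.34 and 4.15 to 4.57. Another of the 3 Cyp1b1 probe sets passed the filter through NP+tau liver 1 alone (4.64), with a difference of 0.15.

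Of the Cyp2a and Cyp2b members, all 4 kept had a higher mean in NP+tau with overlapping groups. Cyp2a12, a testosterone hydroxylase of liver, was at 12.23, 12.32 and 12.89 in NP and at 12.91, 13.13 and 12.85 in NP+tau, a difference of 0.48 (standard error 0.23). Cyp2b9 was at 7.13, 10.52 and 11.11 and at 10.77, 11.05 and 10.81. NP liver 1 alone lay over 3 log2 units below the other 5 livers, and the difference of 1.29 (standard error 0.95) was 0.07 (standard error 0.25) without it. Cyp2b13, beside it on chromosome 7, was at 5.23, 6.10 and 8.66 and at 7.16, 7.43 and 7.44, so the lowest and the highest value were both NP livers. Without NP liver 1 its difference was -0.04. Cyp2b10, the classical target of the receptor CAR, was at 5.89, 6.71 and 5.63 and at 6.90, 6.96 and 6.06 (difference 0.56, standard error 0.36). The other probe sets of Cyp2b10 had differences of 0.50 and 0.25. Cyp2b19, a keratinocyte enzyme, was not kept.

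The Cyp2c members, which metabolise arachidonic acid and many drugs, went both ways, with 6 of 10 above 0 and 4 below (median 0.17). Cyp2c55 had the smallest p of all members, at 8.16, 7.88 and 8.21 in NP and 6.80, 6.93 and 7.27 in NP+tau livers. The NP livers all lay above the NP+tau livers with a gap wider than the spread within either group. The difference was -1.08 (standard error 0.20, 95% interval -1.55 to -0.61, adjusted p = 0.718 from limma), and -1.04 without NP liver 1. Cyp2c38 likewise did not overlap, at 7.61, 7.80 and 7.97 against 6.68, 7.57 and 6.55, with a difference of -0.86 (standard error 0.30).

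Opposite in direction was Cyp2c70, which in mice makes muricholic acids from chenodeoxycholic acid. Its values were 11.95, 12.23 and 12.51 in NP and 13.05, 13.19 and 12.54 in NP+tau livers. The groups did not overlap, but NP liver 3 and NP+tau liver 3 were nearly level. The difference was 0.69 (standard error 0.24, 1.62-fold), and 0.55 without NP liver 1. NP liver 1 was the lowest for Cyp2c70 as well. In the other Cyp2c members with high values, NP liver 3 lay inside or above the range of the NP+tau livers. Cyp2c50 was at 10.89, 12.30 and 13.29 in NP and at 12.81, 13.09 and 12.98 in NP+tau, and Cyp2c68 was at 12.17, 12.83 and 13.11 and at 13.22, 12.97 and 12.98. In both, NP liver 1 was the lowest and the NP+tau livers lay close together. Cyp2c54 ran from 9.90 in NP liver 1 to 12.23 in NP liver 3, with NP+tau livers between (10.57, 11.03 and 10.94). Cyp2c29, Cyp2c37 and Cyp2c23, an epoxygenase known best from kidney, were also lowest in NP liver 1 and had differences of 0.35, 0.21 and 0.12. Without that liver all 3 differences were below 0, at -0.05, -0.17 and -0.60. Cyp2c39 was near the limit of the filter (4.03 to 5.05), and Cyp2c65 was not kept.

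Of the 6 Cyp2d members kept, 4 were above 0 and 2 below, with no groups apart. Cyp2d26 was at 12.45, 13.00 and 13.40 in NP and 12.97, 13.30 and 13.17 in NP+tau livers (difference 0.20, standard error 0.27, and -0.05 without NP liver 1). Cyp2d9, a 16-alpha hydroxylase of testosterone, was at 11.28, 10.06 and 11.33 and at 9.11, 10.81 and 10.01. The lowest value was that of NP+tau liver 1, and the difference of -0.92 (standard error 0.51) was -0.49 without it. Cyp2d13, which RefSeq lists as a transcribed pseudogene, was at 4.78, 5.92 and 7.70 and at 6.51, 7.59 and 7.51, a difference of 1.07 (standard error 0.71), with 0.85 at its other probe set and 0.40 without NP liver 1. Cyp2d10, Cyp2d22 and Cyp2d40 differed by 0.14, -0.10 and 0.30. Without NP liver 1 Cyp2d10 was at a difference of -0.01, and without NP+tau liver 1 Cyp2d22 at 0.18. Cyp2d12 and Cyp2d34 were not kept.

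Cyp2e1 and Cyp2f2 were among the members with NP liver 1 at the bottom. Cyp2e1, which oxidises ethanol and ketone bodies in hepatocytes around the central vein, was at 12.96, 13.88 and 14.27 in NP and at 14.36, 14.23 and 14.25 in NP+tau livers. The NP livers spread over more than 1 log2 unit and the NP+tau livers over little more than 0.1, and NP liver 3 lay among the latter. The difference was 0.58 (standard error 0.33), and 0.21 without NP liver 1. Cyp2f2, known for activating naphthalene in airway club cells and present around the portal vein in liver, was at 8.69, 11.47 and 11.38 and at 11.88, 13.02 and 12.46. Here the NP+tau values all exceeded the NP values. The difference was 1.94 (standard error 0.75, 3.84-fold), and 1.03 (standard error 0.35) without NP liver 1. The promoter of Cyp2f2 shown above held none of the marked letters. Cyp2g1, an enzyme of olfactory mucosa, was at 4.37 to 4.86 (difference 0.11).

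The Cyp2j members, which make epoxides of arachidonic acid, held 2 of the 4 members counted above with higher and non-overlapping NP+tau values. Cyp2j5 was at 8.11, 10.51 and 10.64 in NP and at 10.86, 11.09 and 11.41 in NP+tau livers. NP liver 1 was far below all others, but both other NP livers also lay below the NP+tau range. The difference was 1.37 (standard error 0.65), 1.61 at its other probe set, and 0.55 (standard error 0.23) without NP liver 1. Cyp2j6 was at 7.34, 7.42 and 7.02 and at 7.71, 7.61 and 7.81. NP liver 1 was not its lowest sample, and the difference of 0.45 (standard error 0.18) was 0.49 without that liver. The other probe set of Cyp2j6 differed by 0.56 with overlapping groups. Cyp2j13 was dim, at 3.85, 3.87 and 3.81 and at 4.73, 4.01 and 4.04, and passed the filter through NP+tau liver 1 alone. Cyp2j9 and Cyp2j11 differed by -0.07 and 0.15.

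The single members of the remaining Cyp2 subfamilies are Cyp2r1, the vitamin D 25-hydroxylase, Cyp2s1, which is known from epithelia, and Cyp2u1, a hydroxylase of long-chain fatty acids. Cyp2u1 was at 5.18, 5.73 and 5.26 in NP and at 6.72, 6.33 and 5.67 in NP+tau livers. NP liver 2 and NP+tau liver 3 overlapped narrowly, and the difference was 0.85 (standard error 0.30). At the other probe set of Cyp2u1 the difference was 0.33 and the groups did not overlap. Cyp2r1 was at 5.84, 6.45 and 6.79 and at 5.21, 5.90 and 6.77 (difference -0.40, standard error 0.43, and -0.03 without NP+tau liver 1), and Cyp2s1 was close to the limit of the filter at 4.62, 4.54 and 4.43 and at 4.12, 4.67 and 4.37 (difference -0.14).

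The Cyp3a members, targets of the receptor PXR and the main drug oxidases of liver, had differences of -0.43 to 0.31 with a median of 0.04, and no groups apart. Cyp3a11, the main enzyme of the subfamily in mouse liver, was at 13.87, 13.99 and 14.05 in NP and at 14.13, 13.87 and 14.02 in NP+tau livers. Its 6 livers lay within 0.3 log2 units of each other, and the 95% interval of the difference was -0.35 to 0.43. Cyp3a25 was at 12.91 to 13.45 (difference -0.05, 95% interval -0.54 to 0.44). Cyp3a13 was at 10.49, 10.56 and 10.94 and at 9.69, 10.83 and 10.18 (difference -0.43, standard error 0.31, and -0.16 without NP+tau liver 1). Cyp3a16, known as the fetal form, was at 5.44 to 6.55. Cyp3a44 was at 3.95 to 4.62, and only NP+tau liver 3 carried it over the limit of the filter.

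**Figure D2:**
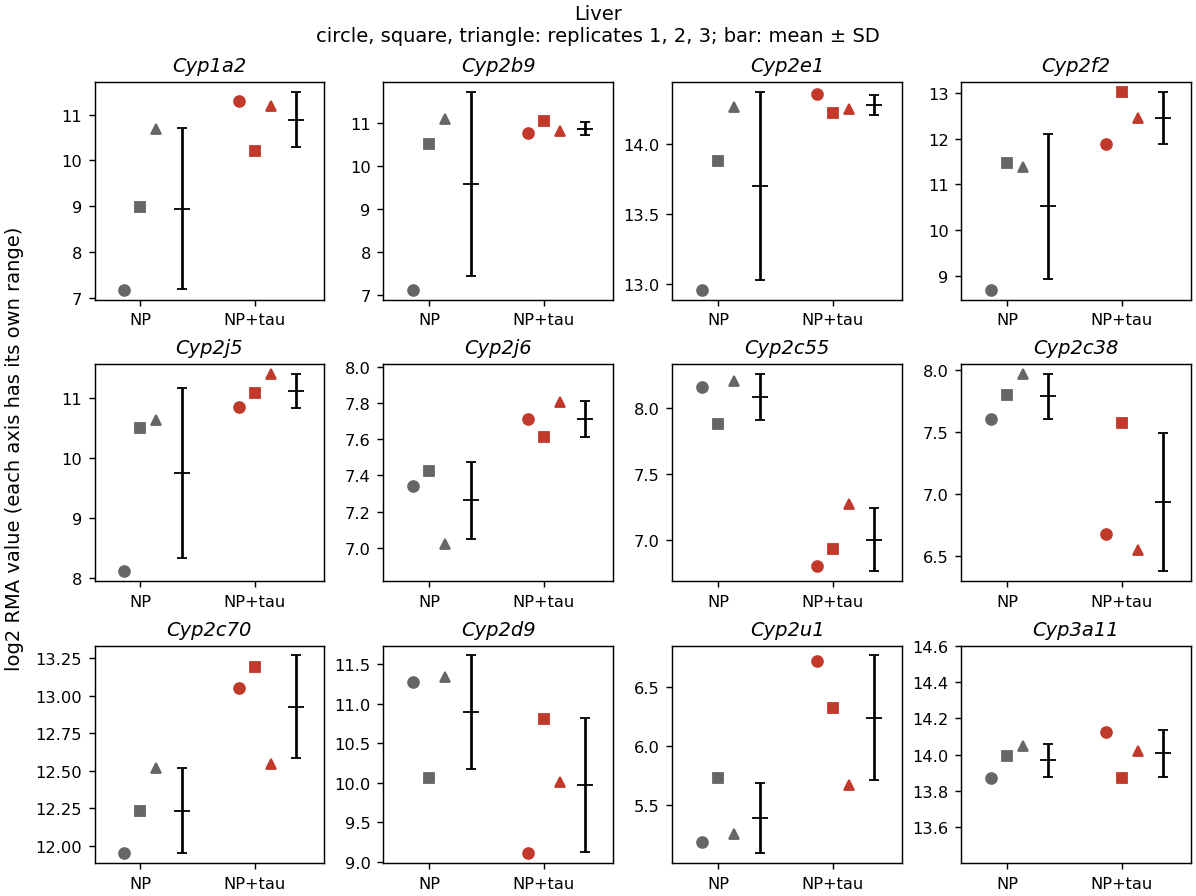
Log2 value (vertical axes, each with its own range) of 12 members in the NP (grey) and NP+tau (red) livers, with circles, squares and triangles for replicates 1, 2 and 3 and bars for the mean and SD of 3 livers. NP liver 1 (grey circle) lies far below the other livers for Cyp2b9, Cyp2f2 and Cyp2j5, while Cyp2c55 separates the groups at 7.88 to 8.21 against 6.80 to 7.27 and Cyp3a11 stays at 13.87 to 14.13.

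Among the NP livers, replicates 1 and 3 lay at opposite ends for many members. NP liver 1 was the lowest of the 6 livers for 21 of the 37 members (56.8%), against 19.1% of all probe sets kept, and the highest for 0 of them, against 25.3%. NP liver 3 was the highest for 15 of the 37 (40.5%), against 11.3% of all. Among the 17 members with a mean level of 10 or more, NP liver 1 was the lowest for 14, against 34.3% of all probe sets that bright. It lay at least 1 log2 unit below the mean of NP livers 2 and 3 for 12 of the 37 (32.4%, against 2.49% of all), and for 8 of the 17 bright ones, against 11.9%. The gap was widest for Cyp2b9 (-3.68), Cyp2f2 (-2.74), Cyp1a2 (-2.66) and Cyp2j5 (-2.46). For the Cyp3a members it was only -0.57 to -0.12. The median SD of the 37 was 0.48 in NP and 0.30 in NP+tau livers, whereas over all probe sets it was 0.18 and 0.33. The SD was larger in NP for 19 of the 37. NP+tau liver 1, the lowest liver for 43% of all probe sets, was the lowest for 7 of the 37.

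**Figure D3:**
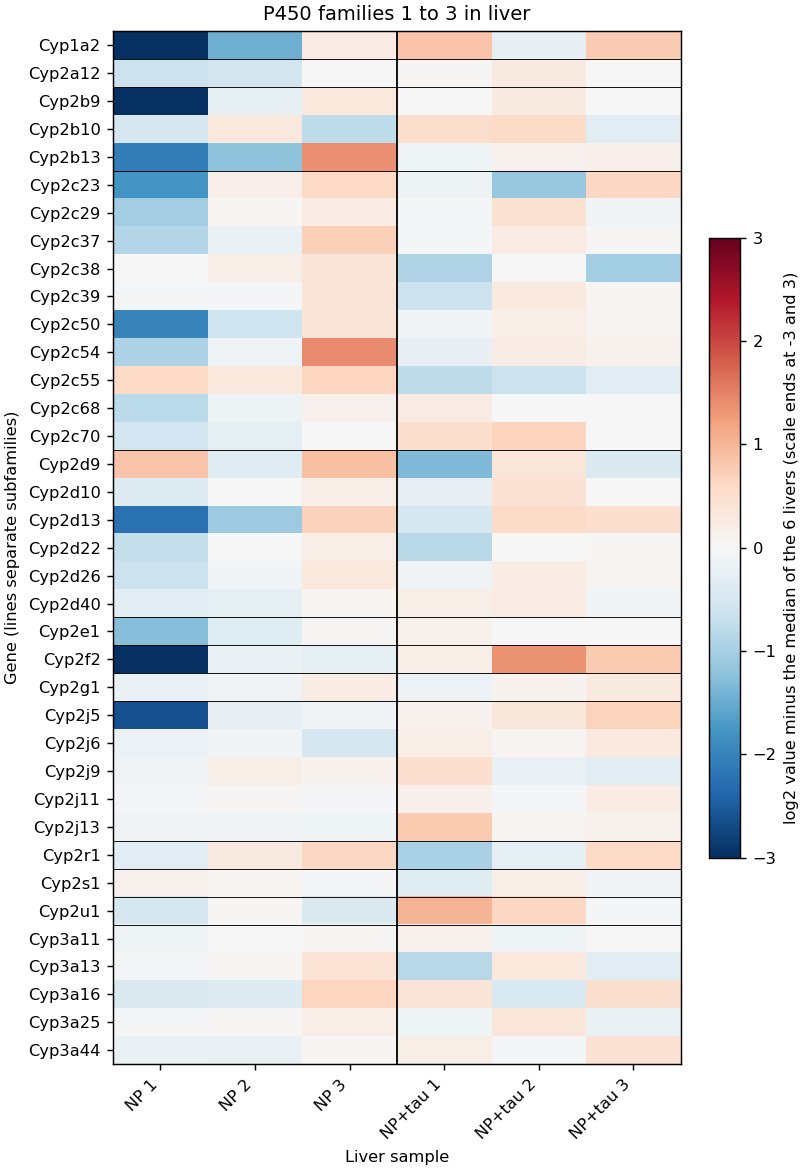
Log2 value minus the median of the 6 livers (colour, scale ending at -3 and 3) for the 37 members kept in liver (rows, lines between subfamilies) in each liver (columns, NP left and NP+tau right of the black line). NP liver 1 is the bluest column, with 21 members at their lowest there, while the Cyp3a rows are pale in all 6 livers.

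Other gene lists differed between the same livers. Acute phase genes had a mean of 9.59 in NP liver 1 and 7.90 to 8.35 in the other 5, and neutrophil markers 8.47 against 5.04 to 6.26. Saa1, an acute phase protein, was at 9.14, 6.24 and 6.19 in NP and at 4.31, 4.54 and 5.95 in NP+tau livers. All 14 macrophage markers had a lower mean in NP+tau (median difference -1.15), with list means of 9.79, 8.84 and 9.11 and of 8.42, 7.47 and 8.37. At an unadjusted p under 0.05 in limma, 10 of them were lower, against 3.99% of all probe sets. The 10 stellate cell and fibroblast markers had a median of -0.85 and the 10 endothelial markers of -0.35. The 16 hepatocyte markers were level, with a median of -0.02 and albumin at 14.95 to 15.05 in all 6 livers. The part of these other cells and of acute phase genes in the P450 differences was not tested.

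Genes of the hepatocytes around the central vein, where many P450 are made, followed an order close to that of Cyp2e1 and Cyp1a2. The 11 of them (listed without P450 genes) had means of 7.87, 8.39 and 9.49 in NP and 9.07, 9.44 and 9.40 in NP+tau livers, with 10 of 11 above 0 and a median difference of 0.65. Glutamine synthetase (Glul), made only in the innermost layer, was at 9.60, 10.25 and 11.25 and at 11.02, 11.91 and 11.72, and the ammonia transporter Rhbg at 4.92, 5.06 and 6.39 and at 6.69, 6.79 and 6.83. As for Cyp2e1 and Cyp1a2, NP liver 1 was the lowest and NP liver 3 lay at or near the NP+tau range. The 9 genes of hepatocytes around the portal vein all had a difference below 0 (median -0.13), with means of 11.15, 11.37 and 11.31 and of 10.43, 10.84 and 11.12. Cyp2f2, described above as present around the portal vein, went the other way from these 9 genes, with a difference of 1.94 and groups apart. No gene of either list passed at an adjusted p under 0.05. At an unadjusted p under 0.05 in limma, 3 genes of the central vein list were higher (Rhbg, Glul and Lect2), against 0.7% of all probe sets. None of the portal vein list was lower, against 3.99%. The part of liver zonation in the P450 differences was not tested.

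**Figure D4:**
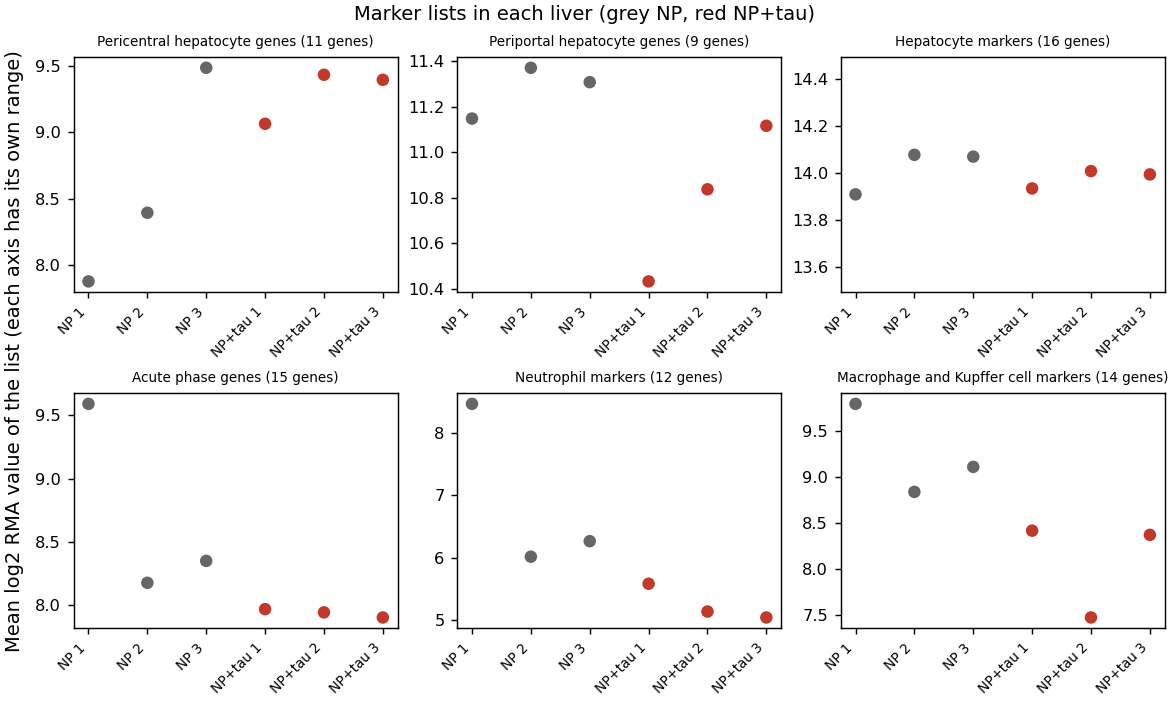
Mean log2 value (vertical axes, each with its own range) of 6 marker lists in each liver, with NP in grey and NP+tau in red. The pericentral mean is 7.87 in NP liver 1 and 9.07 to 9.49 in NP liver 3 and the NP+tau livers, the acute phase and neutrophil means are highest in NP liver 1, and the hepatocyte mean stays at 13.91 to 14.08.

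None of 4 members known to differ between adult males and females split with Xist. Of the female-biased ones, Cyp2b9 was at 11.05 and 10.81 in NP+tau livers 2 and 3, which had little Xist, and at 10.77 in NP+tau liver 1 and 10.52 and 11.11 in NP livers 2 and 3, which had much. Cyp2b13 was at 7.43 and 7.44 in the former and at 5.23 to 8.66 in the other 4. The male-biased Cyp2d9 was at 10.81 and 10.01 in NP+tau livers 2 and 3 and at 9.11 to 11.33 in the other 4. For these 3 genes, the livers with little Xist lay inside the range of the others. The dim Cyp3a44, female-biased in adults, was at 4.11 and 4.62 in the livers with little Xist and at 3.95 to 4.35 in the others, so 1 of the pair lay inside that range. These biases are known from adults, and the mice were 4 weeks old. Livers with little Xist were all NP+tau, so a difference by sex and one by diet cannot be told apart from these values.

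The regulators, a list of xenobiotic receptors and of other transcription factors and cofactors of hepatocytes, went both ways. Of 26 kept, 11 were above 0 and 15 below (median -0.10). At an unadjusted p under 0.05 in limma, 1 was higher (Onecut1, difference 0.99), against 0.7% of all probe sets. Also 1 was lower (Ppargc1a, difference -1.49), against 3.99%. The PXR gene Nr1i2 was at 7.79, 7.77 and 7.84 in NP and at 7.29, 7.05 and 7.66 in NP+tau livers. The groups did not overlap, with a difference of -0.47 (standard error 0.20). Cyp3a11, a target of PXR, was level. The CAR gene Nr1i3 was at 8.71, 9.56 and 9.95 and at 9.46, 9.69 and 9.62, lowest in NP liver 1 like 21 of the 37 P450 genes. Ahr was at 8.82, 8.88 and 9.64 and at 8.99, 8.38 and 9.78 (difference -0.06). Hnf4a was at 10.94 to 11.47 over the 6 livers. Only the mRNA of these regulators was measured, and their part in the P450 differences was not tested.

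P450 enzymes need electrons and haem. Of 8 genes of electron transfer kept, 5 were above 0 and 3 below, and cytochrome b5 (Cyb5a) was at 13.04 to 13.32 in all 6 livers. None was called at an unadjusted p under 0.05 in limma, against 0.7% of all probe sets higher and 3.99% lower. P450 oxidoreductase had no probe set assigned to it alone and was not analysed here. Of 11 genes of haem synthesis and breakdown, 5 were above 0 and 6 below. Alas1, which makes the rate-limiting step of haem synthesis, was at 11.43, 12.41 and 12.63 in NP and at 12.91, 12.44 and 13.22 in NP+tau livers (difference 0.70, standard error 0.36). Hmox1, which breaks haem down and is also made by macrophages, was at 10.04, 8.40 and 8.29 and at 6.57, 7.48 and 7.25. Each NP+tau liver lay below each NP liver, and the difference was -1.81 (standard error 0.50, adjusted p = 0.718 from limma). NP liver 1 was the lowest for Alas1 and the highest for Hmox1.

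Other enzymes and transporters of foreign compounds leaned the same way as the P450 members in liver. Of 28 other phase I enzymes, 21 were above 0 (median 0.39). At an unadjusted p under 0.05 in limma, none was higher, against 0.7% of all probe sets. There, 1 was lower (the carboxylesterase Ces2a, -0.42), against 3.99%. Fmo1, a flavin monooxygenase, was at 9.76, 10.88 and 11.36 in NP and at 11.46, 11.33 and 11.52 in NP+tau livers. Of 15 drug transporters, 9 were above 0 (median 0.16). The organic anion transporter Slco2b1, with a difference of 0.91, was the 1 higher at an unadjusted p under 0.05 in limma, against 0.7% of all probe sets. Of 21 P450 genes of other families, 18 were above 0 (median 0.35). Cyp4f14, a fatty acid hydroxylase, had the smallest p of these, at 5.64, 6.85 and 9.24 and at 9.79, 9.85 and 9.68, a difference of 2.52 (standard error 0.82). For Fmo1 and Cyp4f14, too, NP liver 1 was the lowest and NP liver 3 the closest to the NP+tau livers. No gene of these lists passed at an adjusted p under 0.05.

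In muscle, 13 of the 43 members were kept (limit 4.49), 2 of them only through NP samples, and 30 were not, among them all of Cyp1a, Cyp2g, Cyp2r, Cyp2s and Cyp3a. The differences of all 13 (and of the 11 that both groups carried over the filter) were below 0, against 48.2% of all probe sets kept, with a median of -0.15, against 0.01. No member passed at an adjusted p under 0.05 (0 of 13, the lowest adjusted p being 0.707, against 0% of all probe sets). At an unadjusted p under 0.05 in limma, 1 was lower (Cyp2e1), against 2.4% of all probe sets, and 0 were higher, against 3.72%. The groups did not overlap for 2 with lower values (Cyp2d22 and Cyp2u1), against 7.77%, and for 0 with higher ones, against 7.33%. Without the filter, 35 of the 43 were below 0 (81.4%, against 56.1% of all probe sets), with a median of -0.08 against -0.03, so dim members leaned the same way by little. Without the filter the groups did not overlap for 9 of the 43 with lower values, against 8.99% of all probe sets. Calls at an unadjusted p under 0.05 changed with single muscles. None was lower without NP muscle 1 (0.967% of all probe sets) or NP+tau muscle 2 (2.13%). Without NP muscle 2 the lower ones were Cyp1b1 and Cyp2f2 (1.2% of all), without NP muscle 3 Cyp2d22 and Cyp2e1 (3.16%), without NP+tau muscle 1 Cyp2b10 (2.74%) and without NP+tau muscle 3 Cyp2e1 (1.38%).

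Cyp2e1 had the largest difference of the 13, at 8.89, 9.36 and 7.59 in NP and at 6.47, 7.15 and 8.01 in NP+tau muscles. NP muscle 3 was below NP+tau muscle 3, so the groups overlapped, and the difference was -1.41 (standard error 0.54, 95% interval -2.68 to -0.14). Cyp2d22 was at 7.88, 6.94 and 6.84 and at 6.61, 6.75 and 6.36. Each NP+tau muscle lay below each NP muscle, narrowly except for NP muscle 1, and the difference was -0.64 (standard error 0.29), and -0.32 without NP muscle 1. Its other probe set differed by -0.55 and also did not overlap. Cyp2f2 was at 4.88, 4.54 and 5.23 and at 4.23, 4.56 and 4.46 (difference -0.47, standard error 0.21, and -0.29 without NP muscle 3). Cyp1b1, an enzyme of stromal and vascular cells, was at 6.08, 5.31 and 6.03 and at 5.24, 5.50 and 5.62 (difference -0.36, standard error 0.24, and -0.60 without NP muscle 2). Cyp2b10 was at 5.83, 5.90 and 5.72 and at 6.05, 5.34 and 5.08, a difference of -0.33 that was 0.25 with the Xist level as a covariate, -0.61 without NP+tau muscle 1 and -0.12 without NP+tau muscle 3. Cyp2u1, the other member whose groups did not overlap, was at 4.66, 4.79 and 4.62 and at 4.61, 4.41 and 4.61, a gap of under 0.01 at a level near the filter. The other 7 kept members had differences of -0.17 to -0.05 and levels under 5, and 4 of them turned above 0 when a single muscle was left out. With the Xist level as a covariate, Cyp2a12, Cyp2c68, Cyp2j9 and Cyp2j11 of these 7 were also above 0.

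**Figure D5:**
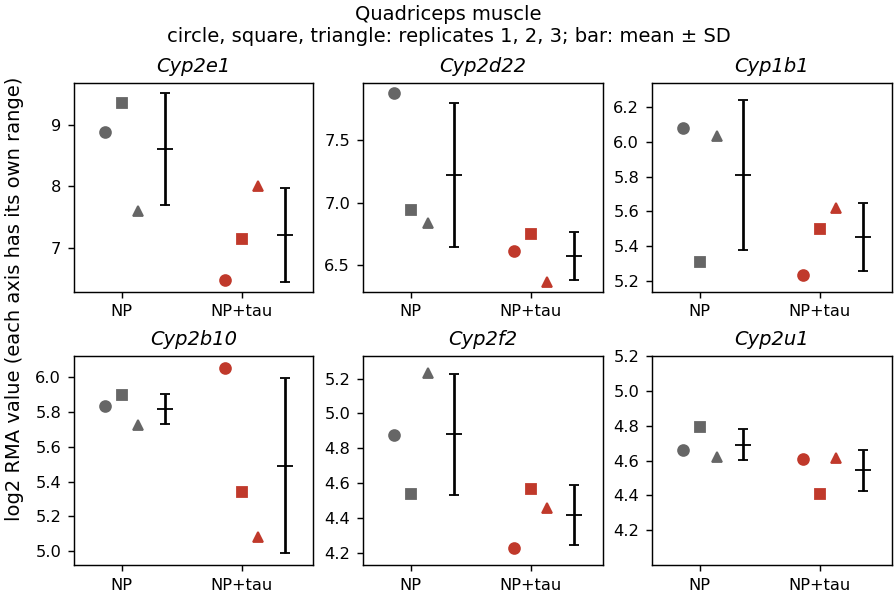
Log2 value (vertical axes, each with its own range) of 6 members in the NP (grey) and NP+tau (red) muscles, with circles, squares and triangles for replicates 1, 2 and 3 and bars for the mean and SD of 3 muscles. Each mean is lower in NP+tau; Cyp2e1 overlaps because NP muscle 3 is at 7.59 and NP+tau muscle 3 at 8.01, and Cyp2d22 does not overlap.

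Markers of other cell types in the muscle samples are given beside these values. The 8 adipocyte markers, of a cell type that makes Cyp2e1, had means of 7.96, 8.16 and 7.66 in NP and of 7.56, 7.10 and 8.12 in NP+tau muscles, with 7 of 8 below 0. Adiponectin (Adipoq) was at 10.50, 10.47 and 9.93 and at 9.64, 8.90 and 10.08, a difference of -0.76. NP+tau muscle 3 was the highest of its group and NP muscle 3 the lowest of its own for Adipoq as for Cyp2e1. Of 16 hepatocyte markers, 10 were kept in muscle, with means of 4.94 to 5.64 and 8 of 10 below 0 (median difference -0.25), and albumin ranged from 5.67 to 8.30. Of 12 macrophage markers 11 were below 0 (median -0.37), with means of 6.83, 6.43 and 7.01 in NP and 6.52, 5.96 and 6.75 in NP+tau muscles. All 7 smooth muscle and pericyte markers were above 0 (median 0.49), with means of 8.41, 8.76 and 8.82 and of 9.19, 8.79 and 9.42. Muscle fibre markers had a median difference of 0.00. The part of fat and other cells was not tested. Of the receptors, Ahr was at 5.98, 6.45 and 5.99 in NP and at 5.01, 5.71 and 5.26 in NP+tau muscles, with groups apart (difference -0.81, standard error 0.23) and an adjusted p of 0.707 by limma, and Nr1i2 and Nr1i3 were not kept. Of 19 other phase I enzymes kept, 8 were above 0 and 11 below. At an unadjusted p under 0.05 in limma, 2 were higher, among them the epoxide hydrolase Ephx2 (0.85), against 3.72% of all probe sets. The retinaldehyde dehydrogenase Aldh1a1 (-0.69) was the 1 lower, against 2.4%.

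The opposite lean in liver and muscle was tested gene by gene as an interaction. The main fit took the arrays as independent, although both tissues came from the same pups. Of 10 members whose liver probe set was kept in both tissues, 0 passed at an adjusted p under 0.05 over 25622 probe sets, the lowest adjusted p being 0.542 from limma. At an unadjusted p under 0.05 there were 4, against 7.8% of all probe sets. The liver difference exceeded the muscle difference by 2.41 for Cyp2f2 (standard error 0.85), 1.99 for Cyp2e1 (standard error 0.68), 1.00 for Cyp2u1 (standard error 0.35) and 0.87 for Cyp2c70 (standard error 0.30). In muscle, Cyp2f2 (4.23 to 5.23), Cyp2u1 (4.41 to 4.79) and Cyp2c70 (4.26 to 4.75) were near the limit of the filter (4.49). Their muscle differences were -0.47, -0.15 and -0.17, so these interactions are mostly the liver difference. Only Cyp2e1 was well above the limit in muscle (6.47 to 9.36). The count of 4 was 1 without NP replicate 1 in both tissues and 2 without NP+tau replicate 2. The share over all probe sets is given for the main fit only, so these counts cannot be set against a background.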

How the data were processed

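Liver and quadriceps muscle of 12 samples were measured on Affymetrix mouse arrays. The deposited values are log2 expression values, which the authors obtained by quantile normalisation within each tissue and summary with RMA (justRMA), so tissues were not compared by level. Control probe sets (64 of 45101) were removed, and a probe set was kept if the highest of its 6 values reached the 35th percentile of these. Diet groups were fitted within a tissue with limma 3.58.1 (lmFit, eBayes; R 4.3.3). P-values were adjusted over 29274 probe sets by the Benjamini-Hochberg method, with a threshold of 0.05. The interaction used all 12 samples. The script was tested on simulated data. The members, gene lists and tests were chosen with earlier results of these data known. Named in full were members past the threshold, up to 6 in each direction whose groups did not overlap, 1 member of each subfamily by the highest mean value, Cyp1a2, Cyp2e1, Cyp2f2, members that differ between adult sexes, up to 6 in muscle, Ahr, Nr1i2, Nr1i3, and up to 3 genes a list, of which not all are printed. Gene symbols came from the platform annotation, which can be old; 2 probe sets naming several P450 genes were left out. Alternatives were other filters, an intensity trend, array weights, centring, the Xist level as a covariate, replicate and animal blocks, other probe sets of a gene, and each replicate left out. Newborn samples were not analysed here.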

Additional observations from a re-analysis of the deposited data

How the results depend on the processing

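No member passed at an adjusted p under 0.05 in either tissue or in the interaction under the main setting or any alternative, except 3 in liver with the Xist level as a covariate, where 32.3% of all probe sets passed. That fit gave 5 members lower at an unadjusted p under 0.05, against 26.2% of all probe sets. Of the named genes, Cyp2c55 (-1.34) and Cyp2u1 (1.45) were past the threshold in that fit. In liver the Xist covariate turned Cyp2j9 from -0.07 to 0.54, Cyp2d10 from 0.14 to -0.17 and Cyp2g1 from 0.11 to -0.20. In muscle the same covariate turned Cyp2b10 from -0.33 to 0.25. It also put Cyp2a12 (0.01), Cyp2c68 (0.11), Cyp2j11 (0.04) and Cyp2j9 (0.10) above 0, while the other kept members stayed below 0. At an unadjusted p under 0.05, leaving out single livers gave 1 to 9 members higher (0.307% to 1.94% of all probe sets). It gave 1 to 4 lower (1.78% to 6.32%). Single muscles gave 0 to 2 lower (0.967% to 3.16%), and single replicate numbers 1 to 5 in the interaction. The muscle count of 1 was 2 with no filter (3.74% of all probe sets), 2 with an intensity trend (2.91%) and 0 with the replicate block (2.02%), and the muscle median was -0.47 under the stricter filter, which kept 5 members. The interaction count of 4 was 9 with no filter over 43 members, and 2 under the stricter filter. The cause was not tested. Replicate numbers did not pair the samples: deviations of same-numbered NP and NP+tau samples correlated at 0.02, -0.11 and 0.11 in liver and -0.21, -0.27 and 0.33 in muscle. With the replicate block, liver had 4 members higher and 2 lower at an unadjusted p under 0.05 (0.652% and 3.05% of all probe sets) and the interaction had 5. The interaction counts of the alternative settings stand without the share over all probe sets. Of the other values, 133 counts and medians moved by less than 1.5 times or by less than 1 SD between replicates, and 298 single-gene values kept their direction and their side of the threshold. These limits are wide. Without NP liver 1 the liver median fell from 0.21 to 0.00 and Cyp2b9 from 1.29 to 0.07, and both are counted here. Dim members, near 4.60 in liver and 4.49 in muscle, carry little signal over background.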
